A study of Mus musculus with 6 samples.

Results

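The library labelled shAsns-1 is 1 of 3 libraries compared here, set against the controls shRenilla A and shRenilla B, out of 6 samples in the whole series. All are RNA sequencing of a mouse mammary carcinoma cell line, grown in DMEM with non-essential amino acids and infected with a short hairpin RNA. The line is 4T1 in the study's design text and 4T1_T in the deposited table's title. Both shAsns-1 and shAsns-2 are hairpins against Asns, and shRenilla targets a luciferase absent from mouse cells, so every library, controls included, comes from hairpin-infected cells. The labels give no time after infection, no vector, no selection and no hairpin sequence, and they do not say whether replicates A and B are separate cultures. The second shAsns-1 library, shAsns-1 B, held 0 reads at every gene and was left out, so shAsns-1 has 1 library and no replicate. Everything below describes that library and no p-value is given. The shAsns-2 libraries A and B are given beside it for comparison; they are set against the same controls.

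Gene reads numbered 10244753 in the library labelled shAsns-1, 15955168 in shRenilla A, 14287190 in shRenilla B, 10472179 in shAsns-2 A and 13888327 in shAsns-2 B. Levels are in CPM, reads per 1000000 gene reads, so the 3 reads taken as a floor equal 0.293 CPM in the library labelled shAsns-1 and 0.188 and 0.210 CPM in the controls. CPM carries no correction for gene length and serves to compare libraries at 1 gene, not genes with each other. A gene was compared when it had at least 50 reads over the 3 libraries, and called higher or lower when its CPM lay at least 1.5-fold above or below both controls. The ratio quoted for a gene is to the nearer control unless stated, with a 95% exact interval that covers counting error only. PCR copies are not separated from independent molecules, and the spread between cultures of shAsns-1 is unknown.

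Asparagine synthetase transfers nitrogen from glutamine to aspartate and so yields asparagine. Its gene is a classic target of ATF4, the transcription factor that cells produce when amino acids run short or the endoplasmic reticulum is stressed, through an element close to the start of the gene. 4T1 cells keep epithelial features such as keratins, E-cadherin and cell junctions while also producing vimentin and other mesenchymal proteins, and they spread readily from the mammary fat pad to the lung. Laminin-332, to which Lama3 and Lamb3 contribute chains, anchors epithelial cells to the basement membrane, and desmosomes and tight junctions bind them to each other.

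Asns was higher in the library labelled shAsns-1 than in both controls, which goes against the label. The gene (ENSMUSG00000029752, GRCm38 chr6:7675169-7693254, minus strand) stood at 110.4 CPM there, from 1131 reads, against 58.7 CPM in shRenilla A and 56.9 CPM in shRenilla B. The level was 1.88-fold that of shRenilla A (1.72 to 2.05) and 1.94-fold that of shRenilla B, while the controls lay within 1.03-fold of each other. In shAsns-2 A and B, Asns stood at 45.7 and 44.2 CPM, below both controls. Asns was thus highest, among the 5 libraries, in the one labelled shAsns-1, and every direction reported below comes from a library in which the targeted gene was not lower. With 1 library, the hairpin and the library cannot be told apart.

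The stretch before the Asns start, where the amino acid response element lies, is shown because Asns was the only member of the asparagine, aspartate and glutamine list to be called. It is the 130 bases before the RefSeq start (GRCm38.p6, chr6:7693210-7693339, minus strand), written 5′ to 3′, with the element TGATGAAAC in capitals, and the GENCODE model of Asns begins inside it.
Asns: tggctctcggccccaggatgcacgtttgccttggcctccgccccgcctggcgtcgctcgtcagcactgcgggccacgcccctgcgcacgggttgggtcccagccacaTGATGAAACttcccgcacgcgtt
The first base of the element lies 23 bases before the RefSeq start. The GENCODE model begins further upstream, so by that model the element lies inside the gene. Searched on both strands of the 250 bases before each start, TGATGAAAC occurred in 70 of 32851 RefSeq promoters (0.213%). On the list of ATF4 and amino acid response genes, which does not hold Asns, it occurred in 0 of 25 members that were not called and in 0 of 1 that was lower. A match describes letters only and does not show that the element was in use.

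Genes of the asparagine and ATF4 pathways other than Asns lay close to the controls in the library labelled shAsns-1. Of 17 genes of asparagine, aspartate and glutamine metabolism compared, Asns was higher, 0 were lower and the median log2 ratio to the control mean was -0.03. Of 30 ATF4-list genes, 0 were higher and 1 lower, where 1.78% of all compared genes were higher and 2.19% lower. The list's median was -0.09. Atf4 itself stood at 221 CPM, between the controls at 215 and 225 CPM. Psat1, an enzyme of serine synthesis and an ATF4 target, stood at 669.7 CPM against 661 and 656 CPM. The 1 lower gene was Ppp1r15a, which encodes the phosphatase subunit GADD34 that ends the stress response, at 2.54 CPM against 4.58 and 4.76 CPM. Its mean lay at 2 to 5 CPM, where 6.76% of all compared genes were lower. All 20 aminoacyl-tRNA synthetase genes, whose enzymes load amino acids onto tRNAs, stayed inside the 1.5-fold limit; their median was -0.23, and 17 of them lay below both controls, where 37.3% of all compared genes did.

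Across all genes, 11437 of 23481 had enough reads to be compared. In the library labelled shAsns-1, 204 were higher (1.78%) and 250 were lower (2.19%), or 454 together (3.97%). By the same rule, shAsns-2 A had 92 genes above both controls (0.805%) and 95 below (0.831%), and shAsns-2 B had 51 above (0.443%) and 76 below (0.661%). These comparisons share their controls, and each rests on 1 library. The controls were themselves at least 1.5-fold apart at 336 genes (2.94%), and 25 of those were among the 454. The median log2 ratio over all compared genes was -0.00065, with 38.1% of them above both controls by any amount and 37.3% below both. Against shRenilla B alone the counts were 415 higher and 400 lower, and against shRenilla A alone 435 and 428.

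Most of the called genes were low in abundance, where counting error is widest. Of the higher genes 55.9% and of the lower genes 59.2% had a mean below 5 CPM over the 3 libraries, and the controls were 1.5-fold apart at 24.6% of the genes below 2 CPM against 0.208% of those at 50 CPM or more. Of 8538 genes with a mean of at least 10 CPM, 65 were higher and 66 lower. The counting interval itself lay beyond 1.5-fold for both controls at 27 higher and 48 lower genes. At 2-fold, 30 genes were higher and 73 lower. At the edge of the rule, among genes of at least 10 CPM, Sclt1 was just inside at a ratio of 1.501 and Herc6 just outside at 1.496; on the lower side Xpo4 was inside at 0.666 and Trim16 outside at 0.669.

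**Figure D1:**
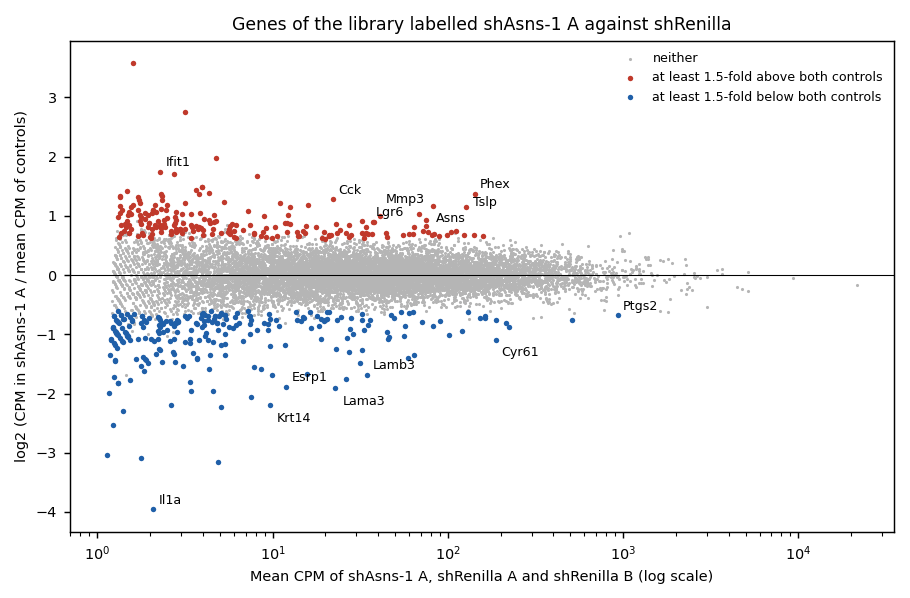
Log2 ratio of CPM in the library labelled shAsns-1 to the mean of both controls (vertical axis) against the mean CPM of the 3 libraries (horizontal log axis), 1 point per compared gene, with the 204 higher genes in red and the 250 lower genes in blue. The grey cloud is widest at the left, and Phex, Tslp, Lama3, Lamb3 and Cyr61 stand clear of it at levels where it is narrow.

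Among the genes of at least 10 CPM, the 15 with the highest ratios were led by Phex, Cck and Pdcd4. Phex, a membrane endopeptidase that controls phosphate handling in bone, stood at 241 CPM in the library labelled shAsns-1, 88.0 and 97.8 CPM in the controls and 123 and 126 CPM in shAsns-2. Its ratio of 2.46 (2.31 to 2.63) was the highest of the 15. Cck, the peptide hormone cholecystokinin, stood at 36.4 CPM against 15.4 and 14.6 CPM, a ratio of 2.36 (2.00 to 2.79). This library was the highest of the 5 for both genes, and shAsns-2 lay between it and the controls, at 20.3 and 16.9 CPM for Cck. Pdcd4, an inhibitor of translation initiation, stood at 17.9 CPM against 7.52 and 7.77 CPM (ratio 2.30), with shAsns-2 at 10.9 and 11.8 CPM. Tslp, an epithelial cytokine that acts on dendritic cells, stood at 199.5 CPM against 86.7 and 93.9 CPM (ratio 2.12, interval 1.98 to 2.28). Amigo2, an adhesion protein with leucine-rich repeats, stood at 61.1 CPM against 30.1 and 30.9 CPM, with shAsns-2 next to the controls at 33.7 and 31.7 CPM. The rest of the 15 were Mgp, Mmp3, Lgr6, Sema4c, Asns, Loxl3, Sord, Angpt1, Tgfbr3 and Bnip3, with ratios of 1.77 to 2.20.

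The 15 with the lowest ratios among genes of at least 10 CPM were led by Lama3, Esrp1, Adam12 and Lamb3. Adam12, a membrane metalloprotease, stood at 10.2 CPM in the library labelled shAsns-1 against 34.1 and 34.4 CPM in the controls, which is 3.36-fold lower than the nearer one. In shAsns-2 it stood at 28.6 and 26.9 CPM. Rgs16, which switches off G protein alpha subunits, stood at 6.44 CPM against 21.2 and 19.6 CPM, or 3.04-fold lower. For both genes the library labelled shAsns-1 lay far below the other 4, which were close together. Gpr97, an adhesion G protein-coupled receptor, stood at 14.3 CPM against 38.7 and 41.4 CPM, with shAsns-2 between at 28.8 and 29.9 CPM. Macc1, a gene linked to invasion of carcinoma cells, stood at 13.9 CPM against 33.8 and 34.5 CPM, with shAsns-2 at 33.1 and 30.2 CPM. The rest of the 15 were Lama3, Esrp1, Lamb3, Adamts1, Il24, Cxcl16, Dynap, Cyr61, Fam83b, Tnfrsf21 and Sorbs2, with ratios of 0.279 to 0.504. In all 30 genes of the highest and the lowest 15, the library labelled shAsns-1 was the highest or the lowest of the 5, and the choice of the genes used that library's value.

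**Figure D2:**
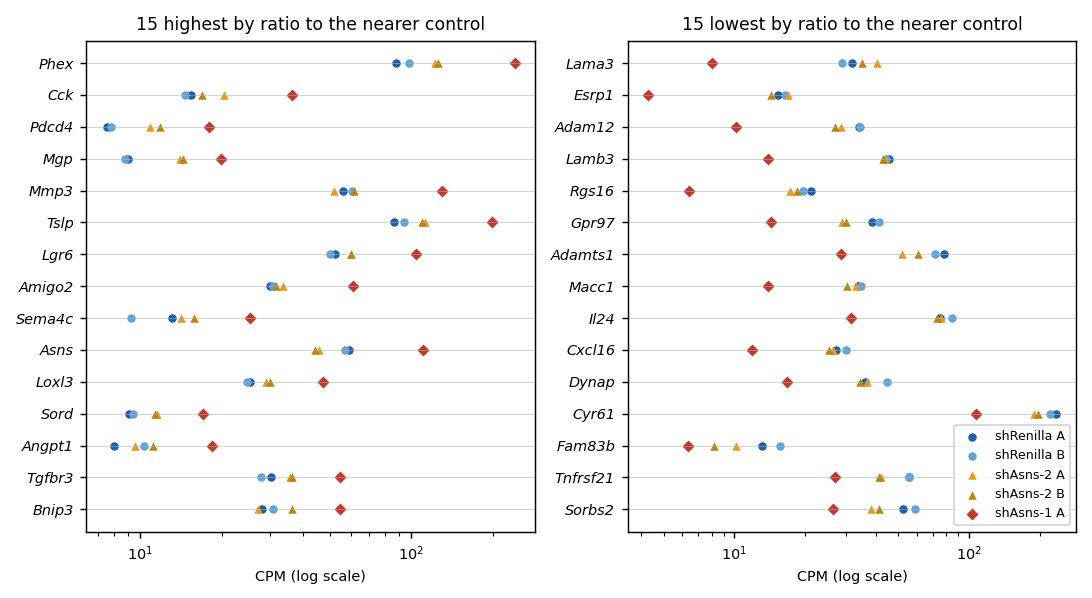
CPM (log axis) of the 15 highest and 15 lowest genes by ratio to the nearer control, each with a red diamond for the library labelled shAsns-1, blue circles for shRenilla A and B and yellow triangles for shAsns-2 A and B. The red diamond stands outside the other 4 libraries in every line, and for Phex, Mgp and Gpr97 the triangles lie between it and the circles.

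The laminin chain genes Lama3 and Lamb3 were low in the library labelled shAsns-1. Of 18 hemidesmosome and basement membrane genes compared, these 2 were lower and 0 higher, where 2.19% of all compared genes were lower. The median log2 ratio was -0.20 against -0.00065 over all genes. Lama3 stood at 8.004 CPM against 31.7 CPM in shRenilla A and 28.7 CPM in shRenilla B, which is 3.59-fold lower (ratio 0.279, interval 0.217 to 0.354). In shAsns-2, Lama3 lay on the other side of the controls, at 40.7 and 34.8 CPM. Lamb3 stood at 14.0 CPM against 45.7 and 44.1 CPM, which is 3.16-fold lower, with shAsns-2 at 43.8 and 42.8 CPM. The integrin chains that bind laminin-332 lay much closer to the controls: Itga6 stood at 519 CPM against 527 and 512 CPM, and Itgb4 at 57.0 CPM against 66.9 and 63.6 CPM. Col17a1, a transmembrane collagen of hemidesmosomes, stood at 3.12 CPM, between the controls at 4.45 and 2.66 CPM. In bulk RNA, fewer cells that express a gene and less of its RNA per cell cannot be told apart.

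Krt14 and Krt7 were lower among the keratins. Of 6 keratin genes compared, 2 were lower and 0 higher, with a median of -0.57, where 2.19% of all compared genes were lower. Krt14, which basal epithelial cells make together with Krt5, stood at 2.83 CPM from 29 reads against 12.8 and 13.2 CPM, which is 4.54-fold lower (ratio 0.220, interval 0.144 to 0.326), with shAsns-2 at 11.8 and 12.5 CPM. Krt7, a keratin of simple epithelia, stood at 61.3 CPM against 103 and 106 CPM. The luminal partners Krt8 and Krt18 were not called: Krt8 stood at 206 CPM against 223 and 219.6 CPM, and Krt18 at 309 CPM against 288 and 307 CPM.

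Desmosome genes Dsp, Dsg2 and Pkp1 and the tight junction genes Ocln, Marveld2 and Cldn7 stood lower than in both controls, as did Epcam. Of 10 desmosome genes, 3 were lower and 0 higher, with a median of -0.47, and 9 of the 10 lay below both controls by any amount, where 2.19% of all compared genes were lower and 37.3% lay below both. Dsp, which encodes desmoplakin and ties desmosomes to keratin filaments, stood at 74.3 CPM against 153 and 132 CPM, with shAsns-2 at 152 and 128 CPM. Dsg2, a desmosomal cadherin, stood at 34.3 CPM against 55.9 and 57.6 CPM, and Pkp1, a plaque protein, at 3.81 CPM against 6.33 and 5.88 CPM, which was lost once the GC trend described below was removed. Of 16 tight and adherens junction genes, 4 were lower and 0 higher, with a median of -0.29. Ocln, or occludin, a membrane protein of tight junctions, stood at 7.03 CPM against 13.5 and 11.9 CPM. Its relative Marveld2, or tricellulin, stood at 16.1 CPM against 27.0 and 27.2 CPM. Epcam, an epithelial adhesion protein, stood at 33.6 CPM against 53.5 and 54.2 CPM, while shAsns-2 lay above both controls at 63.7 and 62.3 CPM. Cldn7, a claudin, was the other, from 12 reads, with an interval to the nearer control of 0.274 to 1.16. The catenin Ctnnb1 stood above both controls, at 1350.4 CPM against 1273 and 1092 CPM. The summed level of the tight and adherens junction list was 3136 CPM against 3144 to 3304 CPM.

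The library labelled shAsns-1, with its Asns level against the label, had lower levels of several regulators of the epithelial state. Of 12 compared, 4 were lower and 0 higher, with a median of -0.42, where 2.19% of all compared genes were lower. Esrp1, a factor that directs epithelial splicing, stood at 4.29 CPM against 15.3 and 16.4 CPM, 3.56-fold lower, with shAsns-2 at 16.9 and 14.4 CPM. Its paralog Esrp2 stood at 13.3 CPM against 24.1 and 21.3 CPM, a ratio of 0.622. The transcription factors Grhl1 and Elf3 were also lower, from 5 and 8 reads. Their intervals to the nearer control, 0.107 to 1.02 and 0.227 to 1.39, both held 1. Both had a mean below 2 CPM, where 13.6% of all compared genes were lower. Grhl2, a relative of Grhl1 that regulates junction genes, had a ratio of 0.704 and was not called, at 19.4 CPM against 29.1 and 27.6 CPM. Cdh1, or E-cadherin, stood at 299 CPM against 431 and 394 CPM, a ratio of 0.760, also inside the limit. Klf5, another abundant member, stood at 118.6 CPM against 119.3 and 145.2 CPM, a ratio of 0.994.

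Mesenchymal genes lay inside the 1.5-fold limit in the library labelled shAsns-1. Of 13 genes of the EMT list compared, 0 were higher and 0 lower, where 1.78% of all compared genes were higher and 2.19% lower. The list's median was 0.09. Vim, or vimentin, stood at 3575 CPM against 3299 and 3433 CPM, and Twist1, a transcription factor of EMT, at 30.8 CPM against 25.9 and 25.5 CPM. Zeb2, a repressor of epithelial genes, stood at 281 CPM against 216 and 198 CPM, a ratio of 1.30, while Zeb1 and Snai1 lay between the controls. Fn1, or fibronectin, was lower than both controls without reaching the limit, at 1333 CPM against 2147 and 1959.5 CPM (ratio 0.681).

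Matrix proteases and their inhibitors were called in both directions: of 24 compared, 4 were higher and 4 lower, with a median of 0.07. Over all compared genes, 1.78% were higher and 2.19% lower. Mmp3, or stromelysin-1, stood at 130.3 CPM against 56.1 and 60.6 CPM, a ratio of 2.15 (1.97 to 2.34), with shAsns-2 at 51.8 and 61.7 CPM. Slpi, a secreted inhibitor of leukocyte proteases, stood at 106 CPM against 63.2 and 56.7 CPM. In shAsns-2 it was nearly as high, at 101 and 95.2 CPM. Adamts9 and Plat were the other higher members. On the lower side, Mmp9, a gelatinase, stood at 4.002 CPM against 11.8 and 14.1 CPM, with shAsns-2 at 8.88 and 10.8 CPM. Adamts1, a secreted protease that cleaves proteoglycans, stood at 28.5 CPM against 78.5 and 71.4 CPM, with shAsns-2 between at 51.9 and 60.6 CPM. Adam12, described above, was also lower. Serpinb2, a serpin that inhibits urokinase, had 3 reads against 27 and 24, a ratio of 0.174 with an interval of 0.0336 to 0.574.

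Mineralization genes, which govern phosphate and calcium deposition in bone, held 3 higher and 1 lower of 11 compared, with a median of 0.31. Over all compared genes, 1.78% were higher and 2.19% lower. Besides Phex, Mgp, a secreted inhibitor of calcification, stood at 19.8 CPM against 9.03 and 8.75 CPM (ratio 2.20, interval 1.76 to 2.74), with shAsns-2 between at 14.0 and 14.4 CPM. Dmp1, an acidic matrix protein of bone and dentin, stood at 6.93 CPM against 2.76 and 2.17 CPM. The lower member was Slc20a1, a phosphate importer, at 106 CPM against 176 and 175 CPM. Spp1, or osteopontin, stood at 1465 CPM, above both controls by a ratio of 1.39, but the controls themselves lay apart at 738 and 1055 CPM.

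Wnt pathway genes were also called in both directions, where 1.78% of all compared genes were higher and 2.19% lower. Of 21 compared, the receptor Lgr6 and the secreted antagonists Sfrp1 and Notum were higher, and 2 ligands and the receptor Fzd4 were lower. Lgr6, a receptor for R-spondins, stood at 104 CPM against 52.1 and 50.1 CPM, a ratio of 2.00 (1.82 to 2.19), with shAsns-2 at 59.8 and 60.0 CPM. Sfrp1, a secreted Wnt antagonist, stood at 209 CPM against 130.1 and 136 CPM, and Notum, an enzyme that inactivates Wnt ligands, at 3.81 CPM against 1.94 and 1.61 CPM. The ligand Wnt7a stood at 2.44 CPM against 11.8 and 8.399 CPM, and the ligand Wnt10a at 1.37 CPM against 2.57 and 2.80 CPM. For Wnt10a, shAsns-2 lay above both controls at 3.53 and 2.88 CPM. The receptor Fzd4 stood at 3.03 CPM against 6.58 and 4.97 CPM. The list's median was 0.03 and turned negative with TMM factors and without shRenilla B.

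Targets of YAP and TAZ, coactivators that respond to cell shape and density, included Cyr61 and Ctgf among the lower genes. Of 17 compared, 3 were lower and 0 higher, with a median of -0.27. Over all compared genes, 1.78% were higher and 2.19% lower. Cyr61, a matricellular protein, stood at 107 CPM against 234 and 221 CPM, 2.07-fold lower than the nearer control. Its relative Ctgf stood at 27.5 CPM against 53.9 and 53.1 CPM. In shAsns-2 Cyr61 lay between, at 188 and 197 CPM, and so did Ctgf at 44.4 and 41.5 CPM. Ajuba, a LIM protein that inhibits the Hippo kinases, stood at 43.7 CPM against 66.4 and 69.8 CPM and was likewise lost once the GC trend was removed. Of 27 TGF-beta pathway genes, 2 were higher and 1 lower, with a median of -0.04. Tgfbr3, or betaglycan, a co-receptor, stood at 54.4 CPM against 30.5 and 27.9 CPM. Tgfbi was the other higher member, and Smad6, an inhibitory SMAD, was the lower one, from 9 reads. Their intervals to the nearer control were 0.896 to 2.67 and 0.258 to 1.44.

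The library labelled shAsns-1, its Asns level against the label, had low Il24, Cxcl16 and Il1a and high Tslp. Of 19 cytokine genes, 1 was higher and 3 lower, where 1.78% of all compared genes were higher and 2.19% lower. The list's median was -0.25. Il24, a cytokine of the IL-10 family, stood at 31.5 CPM against 75.3 and 84.8 CPM, with shAsns-2 at 75.8 and 73.3 CPM. Cxcl16, a chemokine that is also a membrane protein, stood at 11.9 CPM against 27.1 and 29.8 CPM. Il1a, the alarmin interleukin-1 alpha, had 2 reads against 43 and 48, a ratio of 0.0724 with an interval of 0.0085 to 0.278. Of 21 NF-kB pathway genes, 2 were lower and 0 higher, with a median of -0.27, and 17 lay below both controls, where 2.19% of all compared genes were lower and 37.3% lay below both. Tnfaip3, the feedback inhibitor A20, stood at 113 CPM against 195 and 179 CPM, with shAsns-2 between at 168 and 162 CPM. Ptgs2, the inducible prostaglandin synthase, stood at 665 CPM against 1047 and 1075 CPM, with shAsns-2 between at 889 and 922 CPM.

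Interferon response genes held 5 higher and 0 lower of 36 compared, with a median of 0.08 and 21 above both controls by any amount, where 1.78% of all compared genes were higher and 38.1% lay above both. Gbp7, a guanylate-binding protein of cell-autonomous defence, stood at 20.4 CPM against 12.1 and 12.2 CPM, with shAsns-2 between at 15.3 and 14.2 CPM. The other 4 had a mean below 5 CPM over the 3 libraries. Of all compared genes, 8.14% of those below 2 CPM and 6.24% of those at 2 to 5 CPM were higher. Ifit1, an RNA-binding antiviral protein, had 44 reads, or 4.29 CPM, against 1.44 and 1.12 CPM, a ratio of 2.98 (1.76 to 5.17). Isg15, a ubiquitin-like modifier, stood at 2.25 CPM against 0.877 and 0.910 CPM, with shAsns-2 at 2.10 and 1.08 CPM. Oas3, which makes the second messenger of RNase L, stood at 3.90 CPM against 2.13 and 2.45 CPM, a ratio with an interval of 0.987 to 2.58, and was lost after thinning to one depth. Dhx58, a helicase of RNA sensing, stood at 2.73 CPM against 1.38 and 1.47 CPM. The abundant members lay near the controls: B2m, the light chain of MHC class I, stood at 1592 CPM against 1264 and 1311 CPM, and H2-D1 at 397 CPM against 396 and 384 CPM.

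The stretches before the starts of 4 higher interferon genes are shown because they share an element of the interferon response. Each is the 130 bases before the RefSeq start in GRCm38.p6, written 5′ to 3′ on the gene's strand, with matches to GAAANNGAAA or its reverse complement in capitals. They lie at chr19:34640759-34640888 (plus strand, Ifit1), chr4:156200819-156200948 (minus strand, Isg15), chr3:142530206-142530335 (plus strand, Gbp7) and chr5:120777660-120777789 (minus strand, Oas3).
Ifit1: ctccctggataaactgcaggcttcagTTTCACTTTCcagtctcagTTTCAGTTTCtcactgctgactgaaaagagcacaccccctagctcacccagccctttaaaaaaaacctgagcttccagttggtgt
Isg15: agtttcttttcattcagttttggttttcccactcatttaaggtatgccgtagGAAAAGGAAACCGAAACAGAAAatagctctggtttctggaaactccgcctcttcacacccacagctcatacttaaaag
Gbp7: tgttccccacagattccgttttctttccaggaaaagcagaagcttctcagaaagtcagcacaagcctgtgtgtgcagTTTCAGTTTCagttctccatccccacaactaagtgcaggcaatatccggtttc
Oas3: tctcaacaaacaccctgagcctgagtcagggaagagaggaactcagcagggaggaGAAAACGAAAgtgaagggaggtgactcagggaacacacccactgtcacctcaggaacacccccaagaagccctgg
In Isg15 the 3 matches overlap each other and read as 1 capital run, while Ifit1 holds 2 separate matches. Within 250 bases before the start, the element was searched on either strand. It occurred in all 4 higher genes with an entry. It also occurred in 6 of 27 interferon genes that were not called (22.2%) and in 978 of 32851 promoters (2.98%). Isg15 is among the 4, although it passed the read minimum only because it was high. These are matches of letters, not measured binding.

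Hypoxia genes had the highest median after the mineralization list among lists with at least 10 members compared. Of 23 compared, 2 were higher and 1 lower, where 1.78% of all compared genes were higher and 2.19% lower. The median log2 ratio was 0.26, and 15 lay above both controls, against 38.1% of all compared genes. Bnip3, a receptor that marks mitochondria for removal, stood at 54.8 CPM against 28.2 and 30.9 CPM (ratio 1.77, interval 1.56 to 2.01), with shAsns-2 at 27.1 and 36.4 CPM. Ankrd37, a small ankyrin-repeat protein, stood at 6.44 CPM against 2.38 and 2.59 CPM. Adm, the peptide adrenomedullin and also a hypoxia target, was lower at 2.34 CPM against 3.89 and 3.71 CPM. Its interval to the nearer control was 0.373 to 1.04. Of 16 glycolysis genes, the neuronal-type enolase Eno2 was higher, at 12.8 CPM against 7.77 and 6.999 CPM, and 0 were lower, with a median of -0.03. Ldha, lactate dehydrogenase A, stood at 2535 CPM against 2562 and 2655 CPM. The 130 bases before the RefSeq start of Bnip3 (GRCm38.p6, chr7:138909507-138909636, minus strand) show the hypoxia core ACGTG, in capitals on both strands as an overlapping pair.
Bnip3: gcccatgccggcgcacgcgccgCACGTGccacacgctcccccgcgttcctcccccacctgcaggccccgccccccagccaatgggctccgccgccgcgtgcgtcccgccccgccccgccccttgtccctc
The core is short and common: it occurred in 5444 of 32851 promoters (16.6%), in 2 of 2 higher hypoxia genes, in 10 of 15 that were not called (66.7%) and in 0 of 1 lower.

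**Figure D3:**
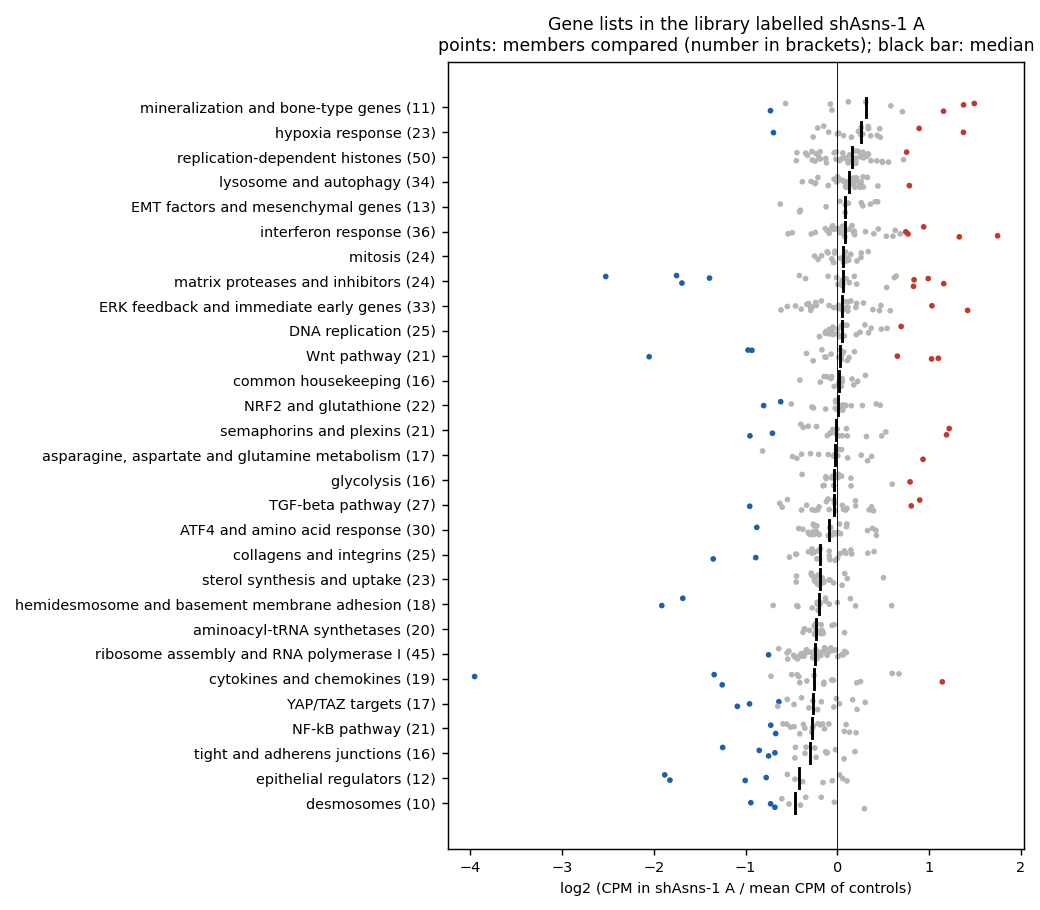
Log2 ratio of the library labelled shAsns-1 to the control mean for each compared member of the lists with at least 10 compared members, with higher genes in red, lower genes in blue, others in grey and black bars for medians. The medians run from 0.31 for mineralization genes to -0.47 for desmosomes, and ribosome assembly shows a narrow grey group left of 0 with 1 blue point.

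Growth and biosynthesis lists held few called genes, with many members on 1 side of the controls. Over all compared genes, 1.78% were higher and 2.19% lower. Of 45 ribosome assembly and RNA polymerase I genes, 36 lay below both controls, against 37.3% of all compared genes, and 1 above, with a median of -0.24, but only Rrp12, a factor of ribosome export, was called, at 22.3 CPM against 36.6 and 38.3 CPM. Of 23 sterol synthesis and uptake genes, 0 were called, the median was -0.19 and 18 lay below both controls. Lysosome and autophagy genes lay the other way, with a median of 0.13 and 23 of 34 above both controls, against 38.1% of all compared genes. The 1 called member was Tfeb, a transcription factor that switches on lysosomal genes, at 2.83 CPM against 1.82 and 1.47 CPM. It had 29 reads, against 29 and 21 in the deeper controls, and its interval to the nearer control was 0.898 to 2.70. Of 25 DNA replication genes, 1 was higher, the cyclin Ccne2, at 44.3 CPM against 25.4 and 29.3 CPM, which was lost under TMM or DESeq2 factors. Of 24 mitosis genes, 0 were called, and the median of 0.07 turned to -0.00 once the GC trend was removed. Of 50 replication-dependent histone genes, Hist1h3c was higher and 0 were lower; their median of 0.16 stood beside a median of -0.36 between the controls, and turned to -0.04 without shRenilla A. Reads of histone genes cannot always be told apart between near-identical copies.

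The remaining lists held few called genes, where 1.78% of all compared genes were higher and 2.19% lower. Of 33 ERK feedback and immediate early genes, the transcription factors Egr2 and Egr3 were higher, at 5.17 CPM against 2.76 and 2.31 CPM and at 2.54 CPM against 1.13 and 0.770 CPM; the list's median was 0.05. Of 22 NRF2 and glutathione genes, Hmox1, heme oxygenase 1, and Gsta1, a glutathione transferase, were lower, with a median of 0.00. The interval of Gsta1 to the nearer control was 0.324 to 1.06. Hmox1 stood at 39.7 CPM against 60.6 and 61.4 CPM and was lost once the GC trend was removed. Of 25 collagen and integrin genes, 2 were lower and 0 higher, with a median of -0.19. These were Itgb6, the beta chain of an integrin that activates TGF-beta, at 2.15 CPM against 4.89 and 6.09 CPM, and Col12a1, at 3.81 CPM against 8.02 and 6.09 CPM. Of 21 semaphorin and plexin genes, 2 were higher, Sema3a and Sema4c, and 2 lower, Sema6a and Plxnc1, with a median of -0.01. The interval of Plxnc1 to the nearer control was 0.333 to 1.17. Sema4c, a transmembrane semaphorin, stood at 25.5 CPM against 13.1 and 9.24 CPM, so the controls also differed from each other. Of 16 common housekeeping genes, 0 were called, with a median of 0.01, and of 4 RNAs without a poly(A) tail, 0 were called, with a median of -0.11.

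The library labelled shAsns-1 carried the mammary carcinoma markers, with some at lower levels. Of 9 mammary carcinoma markers, 3 were lower, Krt7, Epcam and Cldn7, and 0 higher, where 2.19% of all compared genes were lower. The list's median was -0.46. By any amount, 7 lay below both controls and 2 above, among them Cd24a at 1059 CPM against 808 and 769 CPM. With Cd24a included, the 9 markers summed to 2972 CPM against 2899.9 to 2937 CPM in the controls. None of the 9 was at 0. Summed markers of other cell types were low in all libraries but in several cases above the controls. Endothelial markers summed to 6.05 against 3.20 to 3.36 CPM, with Tie1 higher and shAsns-2 at 5.73 and 3.89 CPM. Muscle markers summed to 7.03 against 3.20 to 3.43 CPM, with Acta1 higher and shAsns-2 at 5.73 and 5.40 CPM. Lymphocyte markers summed to 0.781 against 0.125 to 0.210 CPM, with shAsns-2 at 0.191 and 0.144 CPM. Tie1 and Acta1 were lost after thinning to one depth, and their intervals to the nearer control were 0.963 to 2.50 and 0.778 to 3.11. Fibroblast markers summed to 39.9 against 29.2 CPM in each control, with shAsns-2 at 30.0 and 30.2 CPM. Most of that sum was Pdgfra, which was not called, at 38.1 CPM against 28.5 and 28.8 CPM, with shAsns-2 at 29.6 and 29.4 CPM. Adipocyte markers summed to 0.879 against 0.0700 to 0.251 CPM, with shAsns-2 at 0.573 and 0.576 CPM. Liver and kidney markers summed to 2.15 against 0.560 to 1.504 CPM, with shAsns-2 at 1.53 and 0.648 CPM. Macrophage and myeloid markers (13.2 against 11.7 to 14.7 CPM), neural markers (23.8 against 21.9 to 25.4 CPM) and germ cell markers (8.88 against 7.21 to 8.90 CPM) lay within the controls' range, erythroid markers (1.85 against 2.03 to 2.88 CPM) just below it, and Y-linked genes had 0 reads. In the library labelled shAsns-1, 4 of 10 lymphocyte, 1 of 9 endothelial, 2 of 12 muscle, 2 of 11 fibroblast, 4 of 8 adipocyte and 5 of 10 liver and kidney markers were at 0 reads. The part of these reads in the gene differences was not tested.

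Many genes that the other libraries did not detect had a few reads in the library labelled shAsns-1. At least 1 read was found at 17672 genes there and at 15052 to 15392 genes in the other 4, although it was the shallowest library. Reads at 1844 genes were found in this library only, against 162 to 317 in each other library. Of the 1844 genes, 62.9% had 1 read, the highest had 11, and together they took 291 CPM. With every library thinned to 10244753 reads, the numbers were 2016 against 142 to 342. Olfactory receptor genes, silent in most tissues, summed to 41.5 CPM (95% Poisson interval 37.6 to 45.6), spread over 272 of 1122 genes, against 7.99 to 11.9 CPM over 37 to 70 genes elsewhere. Vomeronasal receptors summed to 12.8 CPM (10.7 to 15.2) against 3.89 to 5.63 CPM. Major urinary protein genes had 10 reads in this library and 0 in the other 4. Other silent families were not set apart: bitter taste receptors summed to 1.37 CPM against 1.05 to 1.81 CPM, and beta-defensins to 0.586 CPM against 0 to 0.573 CPM. Keratin-associated proteins were at 0.879 CPM, from 9 reads, against 0 to 0.477 CPM. Olfactory receptors averaged 0.379 reads per gene there, far under the 50-read minimum for a gene to be compared. Unaligned reads made up 23.2% of all reads, against 17.9 and 19.1% in the controls. The part of these features in the gene differences was not tested.

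**Figure D4:**
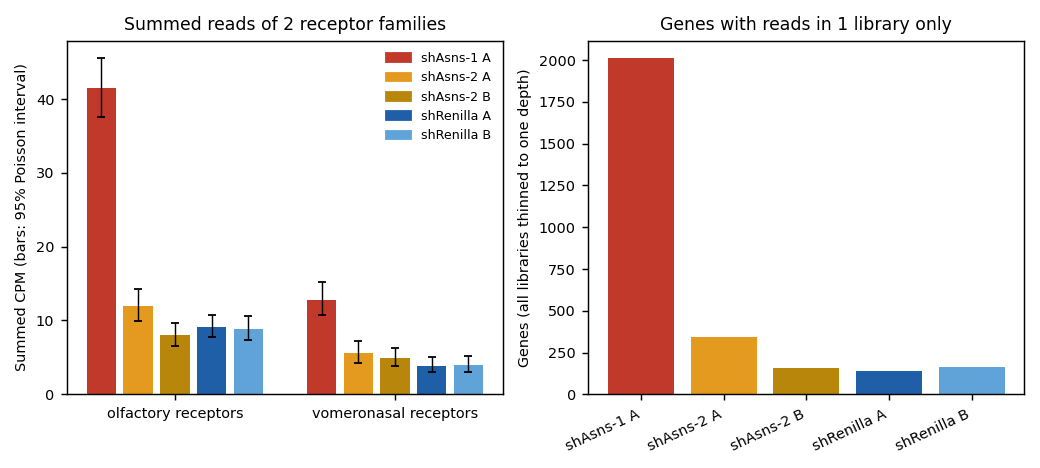
Summed CPM of olfactory and vomeronasal receptor genes in each library, with 95% Poisson intervals (left), and the number of genes with reads in 1 library only after thinning to one depth (right), in linear bars from 0. The library labelled shAsns-1 stands highest in each set of bars, at 41.5 CPM, 12.8 CPM and 2016 genes.

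The log2 ratio of the library labelled shAsns-1 also moved with the GC content of the transcript. Over 8102 genes of at least 10 CPM with a known GC content, split into eighths, the median log2 ratio went from 0.15 at a median GC of 39.9% to -0.08 at 58.2%. The same medians ran between -0.07 and 0.03 in shAsns-2 A, between -0.05 and -0.00 in shAsns-2 B and between -0.04 and 0.01 for shRenilla A over B. Across genes, which are not independent replicates, Spearman's rho between GC content and log2 ratio was -0.332 in the library labelled shAsns-1 and 0.133 and -0.0186 in shAsns-2 A and B. Higher genes had a median GC content of 48.4%, lower genes 51.9% and the others 49.4%. With the trend removed, 181 genes were higher and 247 lower. Of the 83 genes outside both controls that the naming rule picks, 79 stayed outside.

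**Figure D5:**
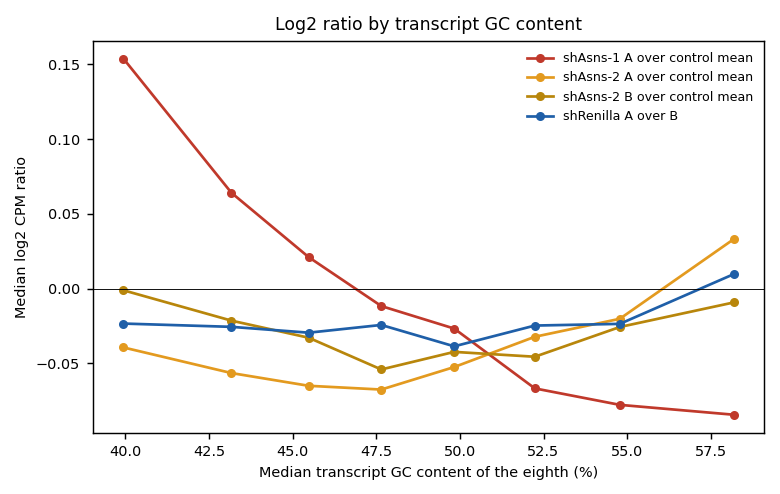
Median log2 CPM ratio (vertical axis) of 8102 genes by eighths of transcript GC content (horizontal axis, percent), with 1 line per library over the control mean and 1 for shRenilla A over B. The line of the library labelled shAsns-1 goes from 0.15 to -0.08, while the others stay between -0.07 and 0.03.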

How the data were processed

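The deposited table holds raw read counts per gene, made by the authors; per the submitters' processing notes, Bowtie2 was the aligner, mm10 the genome and HTSeq the counter, after Trizol extraction and Nugen Ovation RNA-Seq V2 library preparation per the labels' protocols. The sources used here do not give tool versions, the annotation or whether counting used strand, so antisense or overlapping genes and near-identical copies may share reads. The 5 tally lines of HTSeq were dropped, and reads in no annotated feature made up 36.2% of all reads in the library labelled shAsns-1 and 36.1 to 38.3% in the other 4. The column of shAsns-1 B was 0 throughout and was not used.

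CPM was computed from all gene reads with Python 3.11.15 (pandas 2.3.3, scipy 1.17.1), ratios with exact Clopper-Pearson intervals at 95% and summed reads with exact Poisson intervals. Alternatives were TMM factors (edgeR 4.0.16), DESeq2 1.42.0 size factors, CPM without the ribosomal RNA precursor Rn45s, removal of a smooth GC trend (statsmodels 0.14.6), thinning to one depth, leaving out either control, other read minimums, 2-fold, and the counting interval. GC content and gene positions come from GENCODE M21 (94.3% of compared genes matched), promoters from RefSeq, GRCm38.p6. Counting rules were tested on simulated data. No test was made, since 1 library stands on one side.

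Named genes were Asns; the 15 highest and 15 lowest by ratio to the nearer control with a mean of at least 10 CPM; up to 5 members outside both controls and 2 members of highest CPM of each list; and a fixed set of epithelial, mesenchymal and matrix genes. Predicted genes and pseudogenes were not ranked, and 4 genes are not reported here and were left out of the lists. The comparison, the lists and the named set were chosen with earlier results of these data known.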

Additional observations from a re-analysis of the deposited data

Results flagged for a closer look

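For 4 of the 83 named genes outside both controls, the library labelled shAsns-1 and both shAsns-2 libraries lay on opposite sides of both controls. Over all called genes, the same held for 11 of 204 higher and 21 of 250 lower genes. The matching share over all compared genes is not given here, so these counts do not show a contrast between the hairpins. The comparisons of shAsns-1 and of shAsns-2 share their controls. The difference between the hairpins was not tested, since shAsns-1 has 1 library. Asns stood at 110.4 CPM in the library labelled shAsns-1, 58.7 and 56.9 CPM in the controls and 45.7 and 44.2 CPM in shAsns-2. Epcam stood at 33.6 CPM, below the controls at 53.5 and 54.2 CPM, with shAsns-2 above them at 63.7 and 62.3 CPM. Lama3 stood at 8.004 CPM, below 31.7 and 28.7 CPM, with shAsns-2 at 40.7 and 34.8 CPM. Wnt10a stood at 1.37 CPM, from 14 reads, below 2.57 and 2.80 CPM, with shAsns-2 at 3.53 and 2.88 CPM.

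Among reads outside the gene counts, unaligned reads made up 23.2% of all reads in the library labelled shAsns-1, above 17.9 and 19.1% in the controls and 20.1 and 18.2% in shAsns-2.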

How the results depend on the processing

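Among the counts of genes outside both controls, other scalings stayed within 1.5 times of the 204 higher and 250 lower: 178 and 273 with TMM factors, 186 and 262 with DESeq2 size factors, 201 and 251 without Rn45s, 181 and 247 with the GC trend removed, and 191 and 187 after thinning. Leaving out 1 control gave 415 to 435 higher and 400 to 428 lower genes. The read minimum moved the counts to 4091 and 1492 with none, 358 and 377 at 20 reads, 135 and 164 at 100 and 56 and 63 at 500. At 2-fold they were 30 and 73, and with the counting interval beyond 1.5-fold 27 and 48. These steps change how many genes are compared or how far they must lie. The Asns ratio to the control mean, 1.91 (1.77 to 2.06), ranged from 1.87 to 1.94 over the settings in which it was recomputed, and 0 values reversed. Of the 83 named genes outside both controls, 82 stayed outside with TMM or DESeq2 factors (Ccne2 was lost), 79 with the GC trend removed (Ajuba, Ccne2, Hmox1 and Pkp1 were lost), 83 without Rn45s or without either control, and 70 after thinning, where Acta1, Ajuba, Hmox1, Oas3, Pkp1, Plxnc1 and Tie1 moved inside the limit and the rest fell under 50 reads. Of 31 lists with at least 5 members compared, the median changed sign in at least 1 setting for 7, whose medians lay between -0.01 and 0.16: Wnt pathway, ERK feedback, NRF2 and glutathione, mitosis, histones, semaphorins and housekeeping. No paired analysis was possible because shAsns-1 shares only the letter A with the controls and no test was made.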

Other observations

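Several genes outside the lists stood far from both controls in the library labelled shAsns-1; they were chosen after their values were seen. Muc4, a large membrane mucin of epithelia, had 42 reads, or 4.10 CPM, against 2 and 8 reads in shRenilla A and B, and stood at 0.477 and 0.0720 CPM in shAsns-2. Its ratio to shRenilla B, the nearer control, was 7.32 (3.4 to 18.1). Muc4 passed the read minimum only because it was high in the library labelled shAsns-1. With so few control reads, it could enter the comparison as a higher gene but not as a lower one. Ptpru, a receptor tyrosine phosphatase, stood at 14.9 CPM against 5.14 and 4.27 CPM, with shAsns-2 at 5.06 and 5.76 CPM. Casp1, the protease of inflammasomes, stood at 6.93 CPM against 2.38 and 2.59 CPM. Mmp1a, a mouse interstitial collagenase, stood at 7.32 CPM against 3.07 and 2.52 CPM. On the lower side, Serpinb5, the epithelial serpin maspin, stood at 1.46 CPM against 6.39 and 7.28 CPM, with shAsns-2 at 7.16 and 6.98 CPM. Mal2, a protein of apical transport in polarized epithelial cells, stood at 1.17 CPM against 3.70 and 5.39 CPM. Its relative Mal had 3 reads against 34 and 41 in the controls. Muc4 was high while Serpinb5, Mal2 and Mal, likewise epithelial, were low, all in a library whose Asns level goes against its label.

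Prolactin family genes, which include placental hormones, summed to 72.3 CPM in the library labelled shAsns-1. The sums were 89.4 and 94.7 CPM in the controls and 105 and 103 CPM in shAsns-2. In each library most of these reads lay at 1 gene. It held 445 of 741 reads in the library labelled shAsns-1, and 1102 of 1511 and 794 of 1277 in shRenilla A and B. In shAsns-2 A and B it held 856 of 1100 and 1083 of 1434. By chromosome, the median log2 ratio of genes of at least 10 CPM ran from -0.08 on chromosome 15 to 0.06 on chromosome 6, against -0.04 to -0.01 for shRenilla A over B. The medians by chromosome and by GC content were chosen after seeing the data.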
